A study of Mus musculus with 26 samples.

Results

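Tissue from wild-type (WT) mice was compared between the initial segment, where the epididymis begins, and the caput, the stretch of duct that follows it, so that the normal identity of each segment could be described without the mutation that the study was built around. The samples were chosen by label alone: 5 WT initial segment and 5 WT caput libraries, 10 of the 26 samples in the series, with all 23337 genes of the count table. All 10 came from mice of the strain entry C57Bl/6N; 129 hybrid, aged 3 months, whose genotype was WT, and the labels name no treatment. The other samples, of the same strain entry and age, are 5 initial segments and 5 caputs from ArKI mice, the knock-in line of the study, and 3 testes of each genotype. Each library was made from RNA of whole dissected tissue. Per the methods, both segments were taken from 5 WT mice, so initial segment and caput libraries came from the same mice, but which libraries share a mouse is not stated and the test treated all 10 as separate samples.

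The libraries held 7121937 to 9770625 counted reads in the initial segment and 8435665 to 9755329 in the caput, all from sequencing batch 2. Values below are CPM, read counts scaled to a common library size by TMM. At this depth a count of 0 allowed a level of up to about 0.418 CPM (3 counts in a library of the WT initial segment), and this limit covers counting error only. A gene was called when edgeR's quasi-likelihood test gave a Benjamini-Hochberg adjusted p under 0.01 and the estimated change exceeded 2-fold. Differences are log2 of initial segment over caput, given with their standard error, so a positive value is higher in the initial segment.

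The epididymis is a single coiled duct whose epithelium changes from segment to segment, and each stretch secretes its own proteins into the fluid in which sperm mature. The initial segment depends on androgen and also on factors that reach it in testicular fluid, a route called lumicrine signalling, in which the receptor tyrosine kinase ROS1 and the ERK kinases act. Epididymal secretory genes often sit beside relatives of the same family on one chromosome, as do lipocalins, RNase A relatives, cystatins, beta-defensins and protease inhibitors.

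The pair Lcn8 and Lcn5 and the pair Rnase10 and Rnase9 were each called in opposite directions, and their promoters are shown here because the genes lie side by side yet are abundant in different segments. Coordinates and bases are those of RefSeq on GRCm38.p6, 5′ to 3′ on the strand of the gene, up to 250 bases before its start, cut where the window reached the annotated gene. Capitals mark matches, on either strand, to the ETS site AGGAAG, the 6-base part AGAACA of the androgen response element, the TATA box TATAAA or the GC box GGGCGG. Lcn8 lay at chr2:25652868-25653117, plus strand, and Lcn5 at chr2:25657702-25657931, plus strand. Rnase10 lay at chr14:51007501-51007750, plus strand, and Rnase9 at chr14:51041904-51042117, minus strand.
Lcn8: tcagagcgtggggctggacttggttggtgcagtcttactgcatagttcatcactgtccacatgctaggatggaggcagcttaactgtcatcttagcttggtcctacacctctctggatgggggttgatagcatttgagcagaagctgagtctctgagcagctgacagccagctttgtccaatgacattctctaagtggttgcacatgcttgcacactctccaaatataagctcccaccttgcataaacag
Lcn5: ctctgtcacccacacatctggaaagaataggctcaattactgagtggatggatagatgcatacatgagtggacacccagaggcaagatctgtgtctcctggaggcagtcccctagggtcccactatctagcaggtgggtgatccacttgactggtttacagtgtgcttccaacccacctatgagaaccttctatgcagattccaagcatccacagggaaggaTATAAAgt
Rnase10: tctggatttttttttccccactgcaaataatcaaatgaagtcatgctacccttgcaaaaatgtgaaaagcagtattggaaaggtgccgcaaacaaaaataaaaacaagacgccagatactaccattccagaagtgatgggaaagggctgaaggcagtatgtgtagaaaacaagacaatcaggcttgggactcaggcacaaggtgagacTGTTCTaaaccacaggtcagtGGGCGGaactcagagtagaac
Rnase9: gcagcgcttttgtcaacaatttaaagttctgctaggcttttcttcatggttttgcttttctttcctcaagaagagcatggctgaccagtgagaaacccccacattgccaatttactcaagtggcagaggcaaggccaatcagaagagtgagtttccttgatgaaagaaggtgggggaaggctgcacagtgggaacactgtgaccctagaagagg
Positions are counted back from the annotated start of the gene. Lcn5 had a TATA box with its first base 8 bases before the start, and Lcn8 had none of the motifs. Rnase10 had this part of the androgen response element on its minus strand, 42 bases before the start, and a GC box at 21 bases before it, while Rnase9 had no match. None of the promoters held the ETS site. Among 27025 promoters in the table, each read over 250 bases before its start (more than the stretches shown for Lcn5 and Rnase9), 29.2% held the ETS site, 16.2% the androgen response part, 13% the TATA box and 32.9% the GC box, so a match describes these letters and no more.

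The pairs themselves differed as follows. Lcn8 (chr2:25653118-25656217), a lipocalin that carries small hydrophobic ligands, was at 12909, 13715, 13564, 14050.0 and 13163 CPM in initial segments 1 to 5 and at 42.3, 124, 1067, 1136 and 197 CPM in caputs 1 to 5. All initial segments were above all caputs, and caputs 3 and 4 were far above the other 3. The difference was 4.72 ± 0.96 (edgeR adjusted p = 0.00201), and 6.79 without caputs 3 and 4. Lcn5 (chr2:25657932-25662230), which binds retinoids and starts 1714 bases beyond the end of Lcn8 with no gene tested between them, was at 112, 63.99, 63.1, 90.7 and 82.5 CPM in the initial segments and at 17238, 13784, 15288, 14163 and 15471 CPM in the caputs. Its caput values lay close together and far above every initial segment, with a difference of -7.52 ± 0.21 (edgeR adjusted p = 1.29e-09). Rnase10 (chr14:51007751-51010761), an RNase A relative made in the epididymis, was at 9434, 10383, 9539, 10831 and 10008 CPM in the initial segments and 184, 499, 1165, 1359 and 373 CPM in the caputs, a difference of 3.81 ± 0.56 (edgeR adjusted p = 0.000283), or 4.83 without caputs 3 and 4. Rnase9 (chr14:51038459-51041903), another relative 27697 bases further on, was at 11.95, 10.7, 11.2, 19.2 and 15.3 CPM and at 6897, 5034, 6128, 5829 and 6443 CPM, a difference of -8.80 ± 0.22 (edgeR adjusted p = 2.42e-10). In neither gene did the segments overlap, and again caputs 3 and 4 were the highest of their group for the gene of the initial segment.

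**Figure D1:**
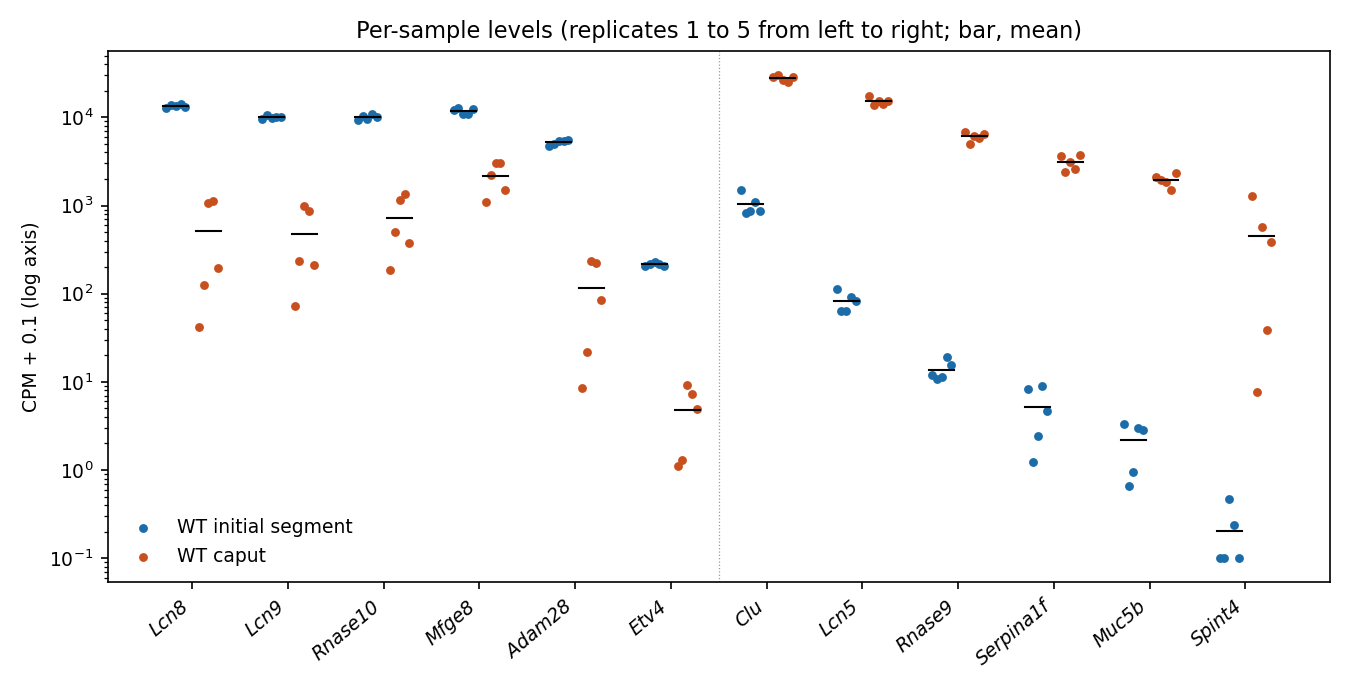
Level of 12 genes in each of the 10 WT libraries, in CPM on a log axis, with a small constant added so that 0 can be drawn, 1 point for each library and a bar at the mean of the 5 libraries of a segment. For Lcn8, Lcn9, Rnase10, Mfge8, Adam28 and Etv4 the initial segments sit above all caputs, and for Clu, Lcn5, Rnase9, Serpina1f, Muc5b and Spint4 the caputs sit above all initial segments, with Spint4 spread from 7.53 to 1277 CPM among caputs.

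Known markers were read next, to check the labels. Of 8 initial segment markers, 7 were called higher in the initial segment (Etv4, Adam28, Lcn8, Cst8, Lcn9, Ovch2 and Rnase10) and Ros1 was just under the fold limit. Their summed level was 43593 to 47724 CPM in the initial segments. It was 689 CPM in caput 1, 1343 in caput 2, 4314 in caput 3, 4420 in caput 4 and 1366 in caput 5, so caputs 3 and 4 held the most RNA of initial segment genes. Of 8 caput markers, Lcn5, Ces5a and Rhox5 were called higher in the caput, Cst11 was called higher in the initial segment, and Gpx5, Adam7, Spag11b and Crisp1 were not called. Gpx5, Adam7 and Spag11b were abundant in both segments, so Lcn5, Ces5a and Rhox5 set the caput libraries apart and the list as a whole did not. Ces5a, a secreted carboxylesterase, was at 69.6, 10.7, 21.2, 51.7 and 22.3 CPM in the initial segments and at 2236, 2160.0, 2083, 2243 and 2544 CPM in the caputs. Crisp1, a cysteine-rich protein that coats sperm, was at 2056, 2293, 2327, 2292 and 1352 CPM in the initial segments and at 907, 17.7, 407, 134 and 425 CPM in the caputs. The segments did not overlap for Crisp1, but caput 2 was far below caput 1, and the gene missed the threshold (2.45 ± 0.82, edgeR adjusted p = 0.0258). Without caput 1 its difference was 3.06, and without caput 2 it was called (2.14).

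The caput libraries also differed in genes of their own. Of 939 genes called higher in the caput at a mean of at least 10 CPM, 6 ranged more than 10-fold among the caputs (Gldc, Gm14316, Gpr82, Pate2, Spint4 and Wfdc13). Each of the 6 was highest in caput 1 and lowest in caput 2, with caputs 1, 3 and 5 above caputs 2 and 4. Of 815 such genes of the initial segment, 27 ranged more than 10-fold among the caputs, and in 25 of them caputs 3 and 4 were the highest. The part of dissection in these patterns was not tested, and log2 differences without these libraries are given beside called genes named below that they moved by over 1.5 times.

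Across all genes, enough reads for testing were found for 13787, while 4357 had no count in any of the 10 libraries. Of those tested, 1339 (9.71%) were called higher in the initial segment and 1526 (11.1%) higher in the caput, 2865 (20.8%) in all. The 5 libraries of a segment lay wholly on one side of the other 5 in 2806 of the 2865, against 57.7% of all tested genes. The first principal component held 89.1% of the variance and separated the segments. The median difference over tested genes was 0.000379, so the tested genes were centred near 0. With no fold limit 8575 genes passed, and the difference exceeded 16-fold for 147 genes of the initial segment and 142 of the caput. In bulk tissue, fewer cells of a type and less RNA per cell cannot be told apart, and this holds for every result below.

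**Figure D2:**
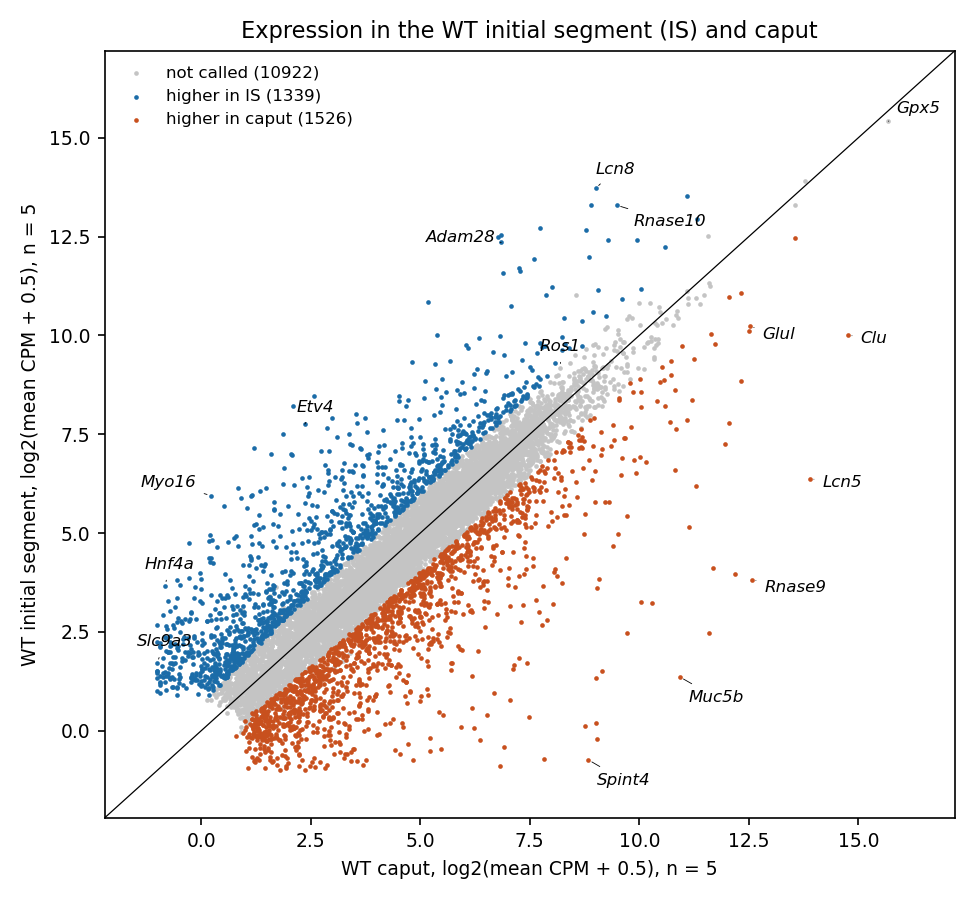
Mean level of each tested gene in the WT caput (x axis) and the WT initial segment (y axis), as log2 CPM with a pseudocount, 1 point for each gene, with called genes coloured by the segment in which they were higher. The 1339 genes above the diagonal and the 1526 below it are spread over the whole range of abundance.

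Per exon length, secreted proteins led both segments. In RPKM, CPM divided by exon length in kilobases (mean over 5 libraries), the highest gene of both was Gpx5, a secreted glutathione peroxidase that protects sperm from peroxides, at 26159 in the initial segment and 31483 in the caput. In CPM Gpx5 was at 48559, 41312, 40078, 44148 and 44856 in the initial segments and 43398, 57043, 52317, 60571 and 50184 in the caputs. The segments overlapped for Gpx5 and it was not called (-0.27 ± 0.08, edgeR adjusted p = 0.0108). After it, the initial segment had Lcn8 (20707 ± 693 RPKM, SD, n = 5), Defb48 (12884 ± 1654), Lcn9 (11994 ± 424) and Cst11 (8881 ± 245). Defb48 and Lcn9 did not differ beyond their spread, nor did Cst11 and the next gene, Defb20 (8530.2 ± 1204). The caput had Lcn5 (17221 ± 1533), Clu (8068 ± 594), Spag11b (6872 ± 1074) and Rnase9 (5102 ± 589), of which Clu and Spag11b lay within their spread of each other, as did Rnase9 and the next gene, Spink8 (4855 ± 684).

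The most abundant called genes of the initial segment, by mean CPM, were Lcn8, Mfge8, Lcn9, Rnase10, Lcn2, Gm4846, 9230104L09Rik, 5830403L16Rik, Defb48 and Teddm1. Mfge8, a secreted glycoprotein that binds phosphatidylserine, was at 12089.9, 12619.6, 10979, 10926 and 12496 CPM in the initial segments and 1098, 2242, 3006, 3049 and 1515 CPM in the caputs. It was thus high in both segments and 5.42-fold higher in the initial segment (2.44 ± 0.29, edgeR adjusted p = 7.16e-05). Gm4846 was at 6731 ± 376 CPM against 213 ± 161 CPM (mean ± SD, n = 5), a 31.6-fold difference. The transmembrane epididymal genes 5830403L16Rik (Teddm2) and Teddm1 (Teddm1a) lie near each other on chromosome 1 and were 51.8-fold and 8.82-fold higher. Gm5531 (Teddm1b), which lies between them, was called the other way, at 671 ± 269 against 2431 ± 272 CPM. Caputs 3 and 4 were the 2 highest caputs for Mfge8, Gm4846, 5830403L16Rik and Teddm1, and without them the differences were 2.86, 6.08, 7.31 and 4.08 on the log2 scale, all still called.

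The most abundant called genes of the caput were Clu, Lcn5, Itm2b, Rnase9, Glul, Slc38a5, Ap1s2, 2210415F13Rik, Spink11 and D730048I06Rik. Clu encodes clusterin, a chaperone secreted into the fluid. It was at 1499, 818, 859, 1099.6 and 873 CPM in the initial segments and at 28366, 30288, 26472, 24992 and 28532 CPM in the caputs. No initial segment came near a caput, and the difference was -4.75 ± 0.20, or 26.9-fold (edgeR adjusted p = 3.31e-08). Itm2b, a membrane protein that regulates the processing of the amyloid precursor, was high in both segments, at 5678 ± 80.4 CPM against 11986 ± 763 CPM, a 2.11-fold difference. Glul, glutamine synthetase, was at 1202 ± 144 CPM against 5882 ± 256 CPM, and Slc38a5, a transporter of glutamine and other neutral amino acids, at 1106 ± 389.7 CPM against 5830.5 ± 749 CPM. Both were higher in the caput with no overlap, by 4.89-fold and 5.27-fold. Ap1s2, a subunit of the clathrin adaptor AP-1, was 2.36-fold higher, and the small cysteine-rich proteins 2210415F13Rik (Lypd8) and D730048I06Rik (Pate6) were 11.1-fold and 19.2-fold higher.

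The 10 genes with the largest difference in favour of the initial segment, at 10 CPM or more, were of other kinds. They were Hnf4a, Myo16, Ffar2, Ntsr1, Tecta, Ccdc153, Krt23, Gria2, Dpys and 9230102K24Rik. Hnf4a, a nuclear receptor that drives epithelial genes in liver and gut, was at 9.32, 11.9, 14.5, 10.04 and 15.5 CPM in the initial segments and 0, 0.108, 0.116, 0 and 0.116 CPM in the caputs. The caputs together held 3 counts against 524, a ratio of 185 with a 95% exact counting interval of 62.9 to 899.8 (edgeR adjusted p = 2.02e-13). Ffar2, a receptor for short-chain fatty acids, was at 27.5, 31.8, 20.7, 23.3 and 29.8 CPM and at 0, 0.108, 0.463, 0.723 and 0.347 CPM. Ntsr1, a neurotensin receptor, was at 135, 146, 156, 159 and 118 CPM and at 0.203, 0.108, 4.39, 3.13 and 1.27 CPM. Neither pair of groups overlapped. Ffar2 was near 0 in the caput and Ntsr1 was at most 4.39 CPM there, 81.6-fold and 80.8-fold below the initial segment. The AMPA glutamate receptor subunit Gria2 was 59.6-fold higher, the keratin Krt23 67.3-fold, the matrix protein alpha-tectorin gene Tecta 80.6-fold and the unconventional myosin Myo16 92.3-fold. Single libraries moved some of these by over 1.5 times: the log2 difference was 6.98 for Ntsr1 and 6.94 for Tecta without caput 3, 6.76 for Krt23 without caput 4 and 6.77 for Ccdc153 without caput 5. Without caputs 3 and 4 together it was 8.10 for Ntsr1, 7.98 for Krt23, 7.57 for 9230102K24Rik, 7.40 for Tecta, 7.39 for Ffar2, 7.32 for Gria2 and 6.64 for Dpys, all still higher in the initial segment. Hnf4a, Myo16, Ffar2, Tecta and Dpys overlap another annotated gene, and whether reads were counted by strand is not stated, so their reads cannot be told apart from those of the partner.

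The largest differences in favour of the caput were larger still, and all were of genes under 20 CPM in every initial segment. The 10 were Spint4, Gm14316, Wfdc13, Defb23, Muc5b, BC048679, AY761185, Serpina1f, Rnase9 and Pate2. Muc5b, a gel-forming mucin, was at 3.23, 0.563, 0.861, 2.93 and 2.78 CPM in the initial segments and at 2099, 1928, 1839, 1509.9 and 2347 CPM in the caputs. Its caputs lay close together, and the difference was -9.87 ± 0.36, or 937-fold (edgeR adjusted p = 1.29e-08). Serpina1f, a serpin, was at 8.25, 1.13, 2.34, 8.92 and 4.53 CPM and at 3686, 2394, 3099.7, 2588 and 3705 CPM, again with no overlap and a 624-fold difference. BC048679 and AY761185 were 814-fold and 747-fold higher. Without initial segment 4 the log2 difference of AY761185 was -10.14. Serpina1f and Pate2, like Glul and Ap1s2 above, overlap another annotated gene.

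The Kunitz-type inhibitor Spint4 had the largest fitted difference, -12.03 ± 2.43 (edgeR adjusted p = 0.00195), with a wide error, and limma-voom did not call it (-10.46, limma-voom adjusted p = 0.416). It was at 0, 0, 0.369, 0.139 and 0 CPM in the initial segments and at 1277, 7.53, 576, 38.8 and 384 CPM in the caputs. Caputs 2 and 4 were low and caput 1 was high, although all exceeded every initial segment. Its neighbours on chromosome 2, Wfdc13 (chr2:164685107-164687706) and Gm14316 (Spint5, chr2:164715305-164718068), had the same order of caputs, at 432, 15.4, 284, 123.1 and 278 CPM and 317, 2.04, 146, 10.01 and 89.1 CPM. Gm14316 had 2 counts in all initial segments, a ratio of 2482 with a 95% exact counting interval of 687 to 20501. Wfdc13 and Gm14316 were not called by limma-voom either (-10.23 and -8.91, limma-voom adjusted p = 0.211 and 0.334). The call of Gm14316 was lost when any 1 initial segment library or caput 3 was left out. Without caputs 2 and 4 the log2 differences were -12.7 for Spint4, -11.3 for Wfdc13 and -11.6 for Gm14316. Single libraries moved Spint4 to -13.35 (without initial segment 3) and -11.18 (without caput 1), Wfdc13 to -11.54 (without initial segment 5) and Gm14316 to -12.93 and -9.97 (without initial segment 5 and caput 1).

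Gene families of secreted proteins split between the segments. Here and for every list below, a count of called members is to be read against 9.71% of all tested genes for the initial segment and 11.1% for the caput. Of 12 tested lipocalins, 7 were called higher in the initial segment and 3 in the caput (median difference 1.87). Beside Lcn8, the genes Lcn9, Lcn10, Lcn2, Lcn13, Lcn14 and Lcn3 were higher in the initial segment, Lcn14 and Lcn3 by 4.58 and 4.72 on the log2 scale, or 5.56 and 5.41 without caputs 3 and 4. Lcn14 and Lcn3 were low, at 4.11 against 0.162 CPM and 2.12 against 0.0704 CPM. Their caput means lay under the limit of about 0.418 CPM given above, so these fold sizes rest on few caput reads. Lcn9 was at 9565, 10521, 9901, 10153 and 10175 CPM in the initial segments and 71.99, 232, 985, 874 and 214 CPM in the caputs. As for Lcn8, caputs 3 and 4 were highest, and the difference was 4.40 ± 0.74, or 5.86 without them. Lcn2, an iron-siderophore carrier of innate immunity, was high in both segments (7884 ± 262 against 2547 ± 740.4 CPM), and Lcn10 was at 2287 ± 71.7 against 533 ± 204 CPM. The 3 genes higher in the caput were Lcn5, Lcn12 (88.6 ± 34.5 against 769 ± 45.3 CPM) and Ptgds, the prostaglandin D2 synthase of the family (96.8 ± 42.5 against 1809 ± 157 CPM). Lcn6, 14407 bases beyond Lcn5, was not called (-0.58 ± 0.18, edgeR adjusted p = 0.0158). In summed level, lipocalins made up 34041 to 35725 CPM of the initial segments and 21160 to 24596 CPM of the caputs.

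Cystatins, inhibitors of cysteine proteases and their reproductive tract relatives, were called in 1 direction. Of 7 tested, Cst11, Cst8, Cst12 and Csta (Csta1) were called higher in the initial segment and none in the caput (median 2.47), and their sum was 10781 to 11830 CPM against 931 to 2613 CPM. Cst8 was at 3193, 3548, 3222, 3302 and 3370.5 CPM in the initial segments and 14.9, 63.4, 323, 304 and 56.3 CPM in the caputs. Caput 1 was lowest and caputs 3 and 4 were highest, and the difference was 4.45 ± 0.84 (edgeR adjusted p = 0.0013), or 6.21 without caputs 3 and 4. Cst12 was 52.3-fold and Cst11 5.52-fold higher (Cst11 by 2.47 on the log2 scale, or 3.17 without caputs 3 and 4, and Cst12 by 5.71 or 7.55). Csta, with 89 counts against 1, which was in caput 4, had a ratio of 94.2 with a 95% exact counting interval of 16.5 to 3764, and Cst3, the cystatin C found in most tissues, was at 498 ± 17.9 against 455 ± 25.3 CPM. The fitted log2 difference of Csta was 5.85, or 7.21 without caputs 3 and 4. The related gene 9230104L09Rik (Cstdc2), in the same cluster on chromosome 2, was 14.6-fold higher, by 3.87 on the log2 scale or 4.796 without caputs 3 and 4. In the RNase A family, 1 of 8 tested genes was called higher in the initial segment (Rnase10) and 3 in the caput (Rnase9, Rnase13 and Rnase6; median -0.34). Rnase13 was at 2.01 ± 1.44 CPM against 514 ± 47.1 CPM, a 262-fold difference. Rnase12, which lies beyond Rnase9, was 1.87-fold higher in the caput, under the fold limit.

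Beta-defensins, small cationic antimicrobial peptides, were mostly higher in the caput: 18 of 30 tested genes, against 3 in the initial segment (median -2.70). Yet their summed level was alike, 25820 to 29903 CPM in the initial segments and 23272 to 30777 CPM in the caputs. Defb48 was at 4850.4, 5716, 6377, 6547 and 5176 CPM in the initial segments and 8.63, 3.87, 242, 217 and 76.2 CPM in the caputs, and Defb25 at 2389 ± 80.03 against 256 ± 176 CPM. Both were higher in the initial segment with no overlap, at 52.5-fold and 9.32-fold. Without caputs 3 and 4 the log2 difference of Defb48 was 7.61 in place of 5.71, and that of Defb25 4.17 in place of 3.22. With the replicate number as a block Defb48 lost its call (edgeR adjusted p = 0.01095), and 2 beta-defensins were called higher in the initial segment. Spag11b, which coats sperm, was not called and was high in both, at 9993 ± 834 against 11957 ± 1869.5 CPM. Defb30 was at 66.4, 78.7, 72.1, 80.8 and 64.2 CPM in the initial segments and 2971, 2132, 2559, 2264 and 2683 CPM in the caputs, and Defb15 at 9.02 ± 7.602 against 1058 ± 111 CPM. These were 34.8-fold and 120.5-fold higher in the caput, with Defb39 at 237-fold and Defb23 at 1419.8-fold, the last not called by limma-voom (limma-voom adjusted p = 0.0648). On chromosome 2, Defb23 and Defb25 lie 157735 bases apart with 7 tested genes between them and were called in opposite directions. Reads of near-identical copies can be lost or split in this family, since only uniquely placed reads were counted.

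Protease inhibitors of other families differed by family. Of 7 tested Spink genes, Kazal-type inhibitors, 5 were called higher in the caput and none in the initial segment (median -4.57), and their sum was 12190 to 14929 CPM against 570 to 934 CPM. Spink8 was at 189, 139, 125, 154 and 149 CPM in the initial segments and 4782, 3261, 3939.8, 3752 and 4196 CPM in the caputs, and Spink11 at 30.1, 1.92, 4.68, 32.6 and 6.595 CPM and 5620.4, 3951, 4540.0, 4278 and 4959 CPM. In Spink11 initial segments 1 and 4 were above the other 3, though all lay far under the caputs, a 312-fold difference. The acrosin inhibitor Spink2 was 142-fold higher, Spink12 23.7-fold and Spink5 7.14-fold. Of 15 tested WAP genes, small inhibitors named after whey acidic protein, 2 were called higher in the initial segment (Wfdc2 and Wfdc6a) and 6 in the caput (median -0.64). Wfdc6a and Wfdc6b, 27726 bases apart, differed in direction, at 55.4 ± 4.05 against 26.7 ± 7.04 CPM and at 12.1 ± 4.33 against 222 ± 13.3 CPM. Between them, Spinlw1 (Eppin), a sperm surface inhibitor, was at 216 ± 27.2 against 256 ± 20.1 CPM and was not called, while Wfdc8, which lies beyond Spinlw1 and overlaps the start of Wfdc6b, was called higher in the caput (119.6 ± 16.6 against 775 ± 79.1 CPM). Without caput 1 or without caput 5 only 1 WAP gene was called higher in the initial segment. Among 16 tested serpins, Serpina1f was called higher in the caput and Serpine2 in the initial segment, and 2 serpins were called higher in the caput when initial segment 1 or caput 1 was left out.

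In the Pate and Ly6 family of small cysteine-rich proteins, 4 of 14 tested genes were called higher in the initial segment and 5 in the caput (median 0.05). Ly6g5b was at 4068, 3996, 3782, 3687 and 3855 CPM in the initial segments and 72.5, 113, 348, 319.5 and 112 CPM in the caputs, and its neighbour Ly6g5c at 1387 ± 108 against 310.1 ± 150.2 CPM. Both were higher in the initial segment, by 20.1-fold and 4.47-fold, or by 4.33 and 2.16 on the log2 scale, which became 5.28 and 2.75 without caputs 3 and 4. Pate2 was at 227, 18.2, 141, 53.9 and 165 CPM in the caputs and at 0 to 0.598 CPM in the initial segments, with caputs 2 and 4 low. It overlaps Pate4 and Pate3, and limma-voom did not call it (limma-voom adjusted p = 0.142). Of 17 tested Adam genes, membrane proteins with a metalloprotease domain, 2 were called higher in the initial segment (Adam28 and Adam8, against 9.71% of all genes) and 5 in the caput (11.1%; median -0.14). Adam7, which reaches the sperm surface, was abundant in both segments, at 15422 ± 335 against 14190.2 ± 1146 CPM. In the Crisp family and its relatives, 2 of 10 were called higher in the initial segment and 3 in the caput (median 0.15), the latter with Crisp2, a testis and sperm protein, at 2.703 ± 1.53 against 16.99 ± 4.37 CPM. Crisp4 was at 416 ± 33.8 against 299.9 ± 11.9 CPM and was under the fold limit.

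**Figure D3:**
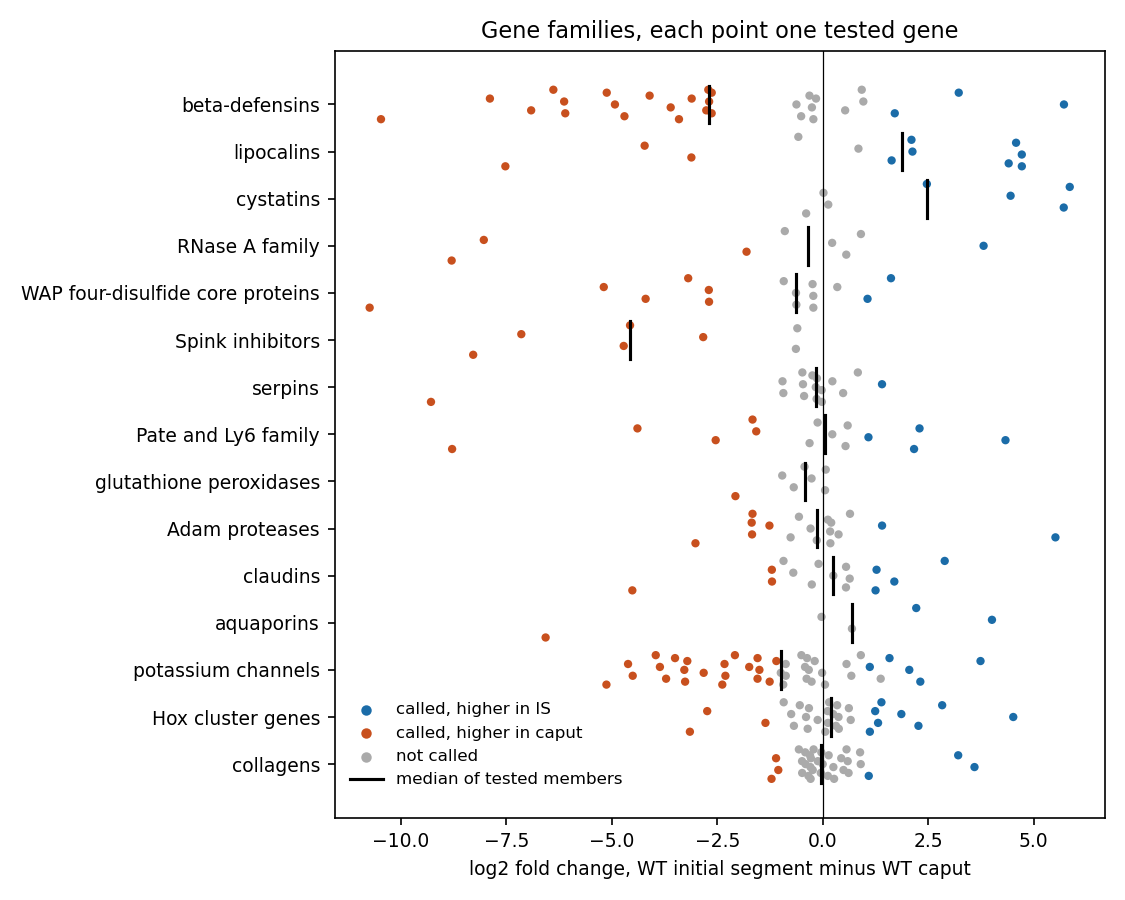
Difference between WT initial segment and WT caput, as log2 fold change, for each tested gene of 15 families, 1 point for each gene, coloured where called (blue higher in the initial segment, orange in the caput, grey not called), with a line at the median of the family. Cystatins and lipocalins sit mostly to the right of 0 (medians 2.47 and 1.87), and Spink inhibitors and beta-defensins to the left (medians -4.57 and -2.70).

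Genes of lumicrine signalling formed the list with the largest share of calls in the initial segment among the pathway lists. This list holds Ros1, Adam28, Ovch2 and Etv4, which also served as initial segment markers above. Its share was thus partly set by the choice of its members. Of 35 tested genes of the ROS1 and ERK list, 17 were called higher in the initial segment and 1 in the caput (median 1.24, against 0.000379 for all genes, of which 9.71% and 11.1% were called). Ros1, the receptor that initial segment differentiation requires, was at 561, 545, 574, 590.4 and 638 CPM in the initial segments and at 284, 289.8, 281, 298 and 317 CPM in the caputs. All initial segments were above all caputs, and the 1.98-fold difference (0.98 ± 0.05, edgeR adjusted p = 4.84e-13) was just below the fold limit. Ros1 was called when initial segment 1, initial segment 2 or caput 5 was left out, at up to 1.01 on the log2 scale. Downstream transcription factors of the ETS family differed more. Etv4 was at 205, 219.9, 227, 219 and 209 CPM and 1.02, 1.18, 9.02, 7.23 and 4.85 CPM, Etv5 at 608, 621, 643, 609.5 and 616 CPM and 13.9, 33.3, 60.8, 64.9 and 25.7 CPM, and Etv1 at 42.4 ± 2.38 against 6.86 ± 1.403 CPM. None of these overlapped, and the differences were 5.57 ± 0.33, 3.97 ± 0.38 and 2.63 ± 0.10. The difference of Etv5 was 4.67 without caputs 3 and 4.

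Feedback inhibitors of the ERK pathway followed. The ERK phosphatase Dusp6 was at 264, 281, 339, 289 and 306 CPM in the initial segments and 15.9, 17.96, 38.2, 33.6 and 20.1 CPM in the caputs, with no overlap, an 11.9-fold difference. Dusp4, Dusp5, Spry1, Spry4, Spred1 and Spred2 were also called higher in the initial segment, with log2 differences from 1.92 for Spred2 to 3.13 for Dusp4. Spry2 (0.92 ± 0.08) and Spred3 (0.98 ± 0.17) were under the fold limit. Of the receptors, Met, the hepatocyte growth factor receptor, was at 87.3 ± 5.01 against 12.4 ± 0.541 CPM and Fgfr4 at 6.32 ± 1.501 against 0.605 ± 0.365 CPM, both higher in the initial segment. Fgfr1, Fgfr2 and Fgfr3 were not called, and the ligand Fgf10 was 3.13-fold higher in the caput at a low level. Kinases of the cascade were under the fold limit, with Mapk3 at 56.1 ± 3.51 against 84.4 ± 4.17 CPM, and Map2k1 at 68.1 ± 1.37 against 53.1 ± 1.34 CPM. The protease genes Adam28 and Ovch2 were at 5231 ± 321 against 115 ± 109 CPM and at 3141 ± 126 against 156 ± 72.8 CPM. Without caputs 3 and 4, Adam28 differed by 7.10 on the log2 scale in place of 5.51, Etv4 by 6.55 in place of 5.57 and Ovch2 by 4.91 in place of 4.33.

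**Figure D4:**
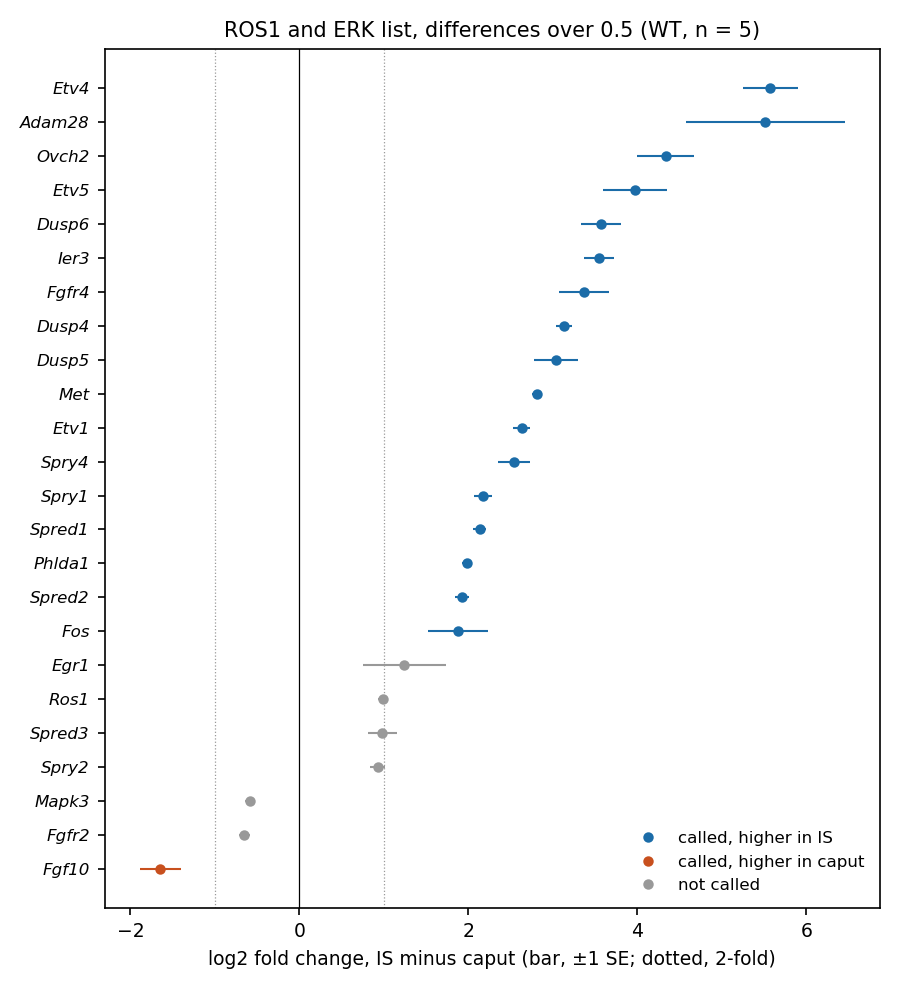
Difference between WT initial segment and WT caput, as log2 fold change with its standard error, for those tested genes of the ROS1 and ERK list that differed by more than 0.5 in either direction. Etv4 (5.57) and Adam28 (5.51) lie farthest to the right, Ros1 sits at 0.98 and Fgf10 at -1.65.

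Of 15 tested genes of androgen metabolism and steroid receptors, 2 were called higher in the initial segment and none in the caput (median 0.24), against 9.71% and 11.1% of all genes, with 1 in the caput when initial segment 3, caput 2 or caput 4 was left out. Srd5a1, a steroid reductase that makes dihydrotestosterone, was at 69.8, 77.6, 66.6, 62.4 and 64.6 CPM in the initial segments and 6.296, 9.47, 11.2, 11.3 and 6.59 CPM in the caputs. The groups did not overlap and the difference was 7.65-fold. The other reductase gene, Srd5a2, was at 96.9 ± 11.3 against 121 ± 9.696 CPM and was not called. Nr3c2, the mineralocorticoid receptor, was called at 3.06-fold, and Esr1, the estrogen receptor alpha, was at 30.02 ± 3.18 against 27.3 ± 4.52 CPM.

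Among 35 tested transcription factors of the epididymis, 6 were called higher in the initial segment and 8 in the caput (median -0.31), against 9.71% and 11.1% of all genes. With Hnf4a, the initial segment had more Ppara, Cebpb, Runx1, Cebpa and Sox9. Runx1 was at 151 ± 9.02 against 33.1 ± 4.47 CPM, Cebpb at 50.4 ± 7.44 against 10.4 ± 3.08 CPM and Sox9 at 131 ± 8.74 against 54.6 ± 3.61 CPM. Ppara, a fatty acid receptor, was 6.93-fold higher. In the caput, Elf5, an epithelial ETS factor, was at 11.6, 15.4, 11.9, 12.5 and 14.3 CPM and in the initial segments at 0.359, 0, 0, 0.139 and 0 CPM. It was thus nearly without reads in the initial segment, with 4 counts in all, most of them in initial segment 1, a 121-fold difference. That fold rests on these few counts. Pax2 was at 19.2 ± 3.14 against 102 ± 12.4 CPM and Tbx3 at 61.4 ± 7.54 against 171 ± 11.2 CPM, and Irx1, Irx2, Elf3, Esrrg and Sp6 were also called higher in the caput. Pax8 (0.66 ± 0.06) and Emx2 (-0.42 ± 0.05), needed for the duct to form, were under the fold limit. Rhox5, an X-linked homeobox gene under androgen control, was the only tested gene of its family, at 5.69, 7.31, 6.01, 5.18 and 6.12 CPM in the caputs. The initial segments held 3 counts of it, a ratio of 85.6 with a 95% exact counting interval of 28.99 to 418. Without initial segment 1 its fitted log2 difference was -7.11 in place of -6.15.

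Hox genes, which record position along the body axis, were expressed in both segments. Of 30 tested, 8 were called higher in the initial segment, against 9.71% of all genes, and 3 in the caput, near the 11.1% of all genes (median 0.20). Hoxb1 was at 12.2, 11.2, 12.4, 11.01 and 11.03 CPM in the initial segments and 0.203, 0.323, 0.578, 0.723 and 0.693 CPM in the caputs, with no overlap, a 22.8-fold difference. Hoxb7 was at 249 ± 15.97 against 106 ± 6.42 CPM, and Hoxa2, Hoxa3, Hoxa9, Hoxa10, Hoxa11 and Hoxd10 were also higher in the initial segment, Hoxd10 by 2.83 on the log2 scale, or 3.43 without caputs 3 and 4. The 3 genes higher in the caput were Hoxd3 (50.5 ± 3.72 against 129.7 ± 2.598 CPM), Hoxd1 and Hoxc9. The abundant genes Hoxb8 (0.38 ± 0.05), Hoxb6 (0.37 ± 0.04) and Hoxd4 (-0.55 ± 0.05) were under the fold limit.

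Genes that set the fluid around sperm differed in both directions. Of 36 tested genes of acid-base and ion transport, 6 were called higher in the initial segment and 12 in the caput (median -0.19), against 9.71% and 11.1% of all genes. Cftr, the chloride and bicarbonate channel, was at 164, 184, 195, 203 and 195 CPM in the initial segments and 10.6, 12.05, 16.1, 14.6 and 12.9 CPM in the caputs. The groups were far apart, a 14.2-fold difference (edgeR adjusted p = 1.55e-14). The bicarbonate cotransporter Slc4a4 and the carbonic anhydrase Car2 were 3.92-fold and 5.52-fold higher. Slc9a3, a sodium-proton exchanger, was at 2.03, 1.803, 2.09, 2.93 and 5.05 CPM in the initial segments and had no count in any caput, at least 8.26-fold higher against a floor of 3 counts for each caput library. In the caput, the carbonic anhydrase Car12 was at 19.8, 12.96, 12.9, 10.6 and 13.5 CPM in the initial segments and 130.5, 141, 119, 116 and 130.5 CPM in the caputs, a 9.09-fold difference. The calcium channel Trpv6 and the calcium pump Atp2b3 were 8.03-fold and 10.5-fold higher, and the calcium pump Atp2b4 was at 478 ± 44.1 against 1039.7 ± 98.4 CPM. The exchanger Slc9a2 (2.505-fold) was also higher in the caput, opposite to Slc9a3.

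Channels and junctions also divided. Of 43 tested potassium channel genes, 21 were called higher in the caput and 5 in the initial segment (median -0.996), and 3 in the initial segment when caput 2 or caput 5 was left out. The voltage-gated channel Kcna1 was at 7.48 ± 1.57 against 72.1 ± 7.31 CPM. Kcnj11, the inward rectifier of ATP-sensitive channels, went the other way, at 98.2, 98.6, 94.6, 84.7 and 79.7 CPM in the initial segments and 4.16, 3.55, 12.7, 9.28 and 4.97 CPM in the caputs, a difference of 3.74 on the log2 scale, or 4.43 without caputs 3 and 4. The most abundant, Kcnk1, was under the fold limit at 397 ± 13.01 against 499.6 ± 11.5 CPM. Of 5 tested aquaporins, Aqp1 and Aqp4 were called higher in the initial segment and Aqp6 in the caput. The water channel Aqp1 was at 107 ± 8.11 against 22.9 ± 1.61 CPM, and Aqp9, which also passes glycerol, at 185 ± 12.8 against 115 ± 8.88 CPM, under the fold limit. Of 15 tested claudins, which seal or gate tight junctions, 4 were called higher in the initial segment (Cldn10, Cldn1, Cldn4 and Cldn14) and 3 in the caput (Cldn3, Cldn8 and Cldn23; median 0.25). Cldn10 was at 188, 215, 189.7, 216 and 196 CPM in the initial segments and 15.7, 24.3, 35.7, 48.7 and 12.5 CPM in the caputs, a difference of 2.89 on the log2 scale, or 3.51 without caputs 3 and 4. The most abundant claudin, the pore-forming Cldn2, was under the fold limit at 1133 ± 85.6 against 729 ± 74.7 CPM.

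Of 40 tested genes that act on sperm or on luminal proteins, 13 were called higher in the caput and 5 in the initial segment (median -0.40). Ace, angiotensin-converting enzyme, which is shed onto sperm, was at 278, 230.0, 214, 197 and 250.4 CPM in the initial segments and 2259, 2170.2, 2107, 1901 and 2439 CPM in the caputs. No values overlapped, a 9.295-fold difference. The sperm-binding protein Bsph1 was 13.7-fold, the sterol carrier Npc2 3.83-fold, the peptidase Dpp4 6.63-fold and the ectonucleotidase Enpp1 19.8-fold higher in the caput. Enpp2, the lysophospholipase D autotaxin, was higher in the initial segment, at 1668, 1792, 1630.3, 1932 and 1591 CPM against 46.3, 93.7, 210.1, 237 and 80.4 CPM in the caputs, a difference of 3.69 on the log2 scale, or 4.55 without caputs 3 and 4. The metalloprotease Mmp7 was at 150.4 ± 13.9 against 17.7 ± 2.83 CPM.

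Genes of metabolism were called in both directions. In glutathione and antioxidant enzymes 1 of 36 tested genes was called higher in the initial segment and 7 in the caput (median -0.23). The gamma-glutamyl transferases split, with Ggt7 at 144, 165, 147, 147 and 153 CPM in the initial segments and 4.87, 7.64, 15.03, 16.2 and 6.24 CPM in the caputs, and Ggt1 at 53.9, 39.8, 39.6, 40.002 and 48.9 CPM and 443, 445, 419, 397 and 459.6 CPM. Neither gene overlapped between the segments, 15.3-fold higher in the initial segment and 9.72-fold higher in the caput. The log2 difference of Ggt7 was 4.59 without caputs 3 and 4, in place of 3.94. The glutathione transferases Gstm7, Gstm1, Gstm5 and Gsta3 were called higher in the caput, and a second gene of the list was called higher in the initial segment without initial segment 1. Of the glutathione peroxidases, 1 of 7 tested was called, Gpx3, at 154, 158, 167, 145 and 194 CPM in the initial segments and 1132, 319, 760.1, 444 and 784 CPM in the caputs. Of 24 tested glycolysis genes, 2 were called higher in the initial segment (Hk2 among them) and 7 in the caput (median -0.61), among them Ldhb, Ldha and the lactate carriers Slc16a1 and Slc16a3, and 1 in the initial segment without caput 2. Hk2, a hexokinase, was at 272 ± 21.8 against 131 ± 14.03 CPM. Gapdh was at 1.01 ± 0.212 against 1.69 ± 0.435 CPM, and since only uniquely placed reads were counted, genes with many processed pseudogenes can be read too low.

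Of 31 tested genes of cholesterol synthesis and uptake, 6 were called higher in the initial segment, against 9.71% of all genes, and 3 in the caput, near the 11.1% of all genes (median 0.56). Their summed level went the other way, at 5726 to 6452 CPM in the initial segments and 6732 to 7259 CPM in the caputs. Dhcr7, which makes cholesterol from its last precursor, was at 23.7, 33.5, 24.7, 27.04 and 22.1 CPM in the initial segments and 1.12, 2.37, 3.12, 1.93 and 1.39 CPM in the caputs, and Lss at 74.6 ± 11.5 against 23.2 ± 2.17 CPM. Of 45 tested genes of oxidative phosphorylation, only Cox4i1 was called, at 231 ± 7.87 against 468 ± 19.1 CPM, with 2 calls when initial segment 4 was left out. Of 38 tested genes of folding and stress in the endoplasmic reticulum, none was called higher in the initial segment and 3 in the caput (Pdia4, Asns and Chac1; median -0.05). Pdia4 was at the fold limit itself (2.00-fold), and 2 genes were called in the caput by DESeq2, by limma-voom, with the replicate block, with library size only, and when initial segment 2, 3 or 4 or caput 5 was left out. The most abundant of the list, Calr, was at 2431 ± 110.1 against 3158 ± 222 CPM. Of 12 tested genes of polyamine, carnitine and osmolyte handling, Slc6a6, Slc5a3 and Azin1 were called higher in the initial segment and Slc6a12, a betaine carrier, in the caput. Of 16 tested retinoid genes, 2 were called higher in the initial segment and 1 in the caput, close to the 9.71% and 11.1% of all genes. Crabp1, a retinoic acid binding protein, had no count in any caput and was at 1.195, 2.25, 1.85, 2.09 and 2.68 CPM in the initial segments, at least 5.98-fold higher. Rarres1 was 18.7-fold higher in the caput.

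Of 28 tested innate immune and complement genes, 4 were called higher in the initial segment (Lcn2, Lyz2, C1qc and C1qa) and 3 in the caput (Ido1, Ido2 and Clu; median -0.08), close to the 9.71% and 11.1% of all genes. Without initial segment 3, or without caput 1, 2 were called higher in the initial segment. Ido1, which degrades tryptophan, was at 134, 107, 104, 102 and 110.4 CPM in the initial segments and at 1222, 1075, 1187, 1085 and 1123 CPM in the caputs. The groups were far apart, a 10.2-fold difference (edgeR adjusted p = 4.99e-18). Ido2, 7718 bases away on chromosome 8, was at 3.94 ± 1.81 against 43.97 ± 3.23 CPM. The central complement component C3 was at 159 ± 8.89 against 153 ± 26.3 CPM and was not called.

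Markers of other cell types also moved with the segment. Of 8 ciliated cell and efferent duct markers, 6 were called higher in the initial segment and none in the caput (median 1.69), with sums of 71.1 to 93.1 CPM against 23.3 to 28.1 CPM. Foxj1, the regulator of motile cilia, was at 22.5, 29.4, 28.5, 28.6 and 35.4 CPM in the initial segments and 1.42, 1.18, 1.16, 0.965 and 1.16 CPM in the caputs. Ccdc153, among the largest differences above, was at 10.8, 15.7, 14.3, 12.4 and 14.9 CPM and at 0.102, 0.108, 0.116, 0.121 and 0.462 CPM. Of 8 endothelial markers 4 (Plvap, Kdr, Emcn and Pecam1) and of 10 macrophage and dendritic cell markers 4 (Cx3cr1, Emr1, Csf1r and C1qa) were called higher in the initial segment. Their sums were 184 to 222 CPM against 116 to 125 CPM, and 339 to 457 CPM against 222 to 290 CPM. Of 7 basal cell markers Cldn1, Itga6 and Trp63 were called higher in the initial segment, with sums of 528 to 561 CPM against 323 to 373 CPM, while Krt5 and Krt14 were not called. Only 4 of the 7 had a positive difference (median 0.40), so the list as a whole did not go 1 way.

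In smooth muscle 1 of 7 markers, Actg2, was called higher in the initial segment, at 2874, 3098, 3029.5, 3089 and 3086 CPM against 43.3, 62.5, 208, 203 and 74.996 CPM in the caputs, a difference of 4.68 on the log2 scale, or 5.65 without caputs 3 and 4. The other 6 (median of all 7 -0.59) were not called, and only 1 of the 7 differences, that of Actg2, was positive. The list summed to 3458 to 3689.9 CPM against 829.5 to 1150.1 CPM, most of it Actg2 in the initial segments. Myh11 was at 186 ± 4.18 against 309 ± 19.4 CPM. Of 5 fibroblast markers only Pdgfra was called, at 528 ± 22.5 against 89.9 ± 23.6 CPM, with sums of 1055 to 1179.7 CPM against 687 to 763 CPM, while Dcn was at 262 ± 20.1 against 258 ± 17.8 CPM. Of 5 tested clear cell markers, which mark the proton-secreting cells, Foxi1, Atp6v1g3 and Atp6v1b1 were called higher in the caput and Car2 in the initial segment, with sums of 287 to 305 CPM against 299 to 342 CPM. Foxi1, their regulator, was at 41.6, 25.3, 23.3, 23.8 and 37.9 CPM in the initial segments and 133, 163, 149.6, 159 and 148 CPM in the caputs. Of T and NK cell markers, 2 were tested and neither was called, with 1 call in the initial segment without initial segment 2, initial segment 4 or caput 4. No adipocyte marker passed the filter, at sums of at most 7.05 CPM. The part of these cell types in the differences of other genes was not tested.

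Transcripts of late spermatids and sperm were higher in the caput. All 12 markers were tested and 11 were called higher there (median -2.205), with Ldhc missing the threshold (-1.57 ± 0.50, edgeR adjusted p = 0.0198). Prm2, the protamine that packs sperm DNA, was at 10.04, 9.13, 22.9, 3.62 and 21.4 CPM in the initial segments and 76.7, 72.2, 132, 74.03 and 84.01 CPM in the caputs. Initial segment 4 was lowest and caput 3 highest, and the segments did not overlap. The summed level was 15.6 to 84.3 CPM in the initial segments and 251 to 392 CPM in the caputs, while Prm2 alone was at 4958 to 5982 CPM in 3 WT testes, whose table was scaled separately. Without caputs 3 and 4, 8 were called, and without caputs 2 and 4, 9. With the replicate number as a block 10 were called, and with limma-voom 12. Of 937 tested genes whose mean level in WT testis was at least 10 times their mean over the 10 epididymal libraries, 231 (24.7%) were called higher in the caput and 141 (15.05%) higher in the initial segment (median -0.19), against 11.1% and 9.71% of all tested genes. They made up 6.80% of all tested genes, 15.1% of all genes called higher in the caput and 10.5% of those of the initial segment.

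**Figure D5:**
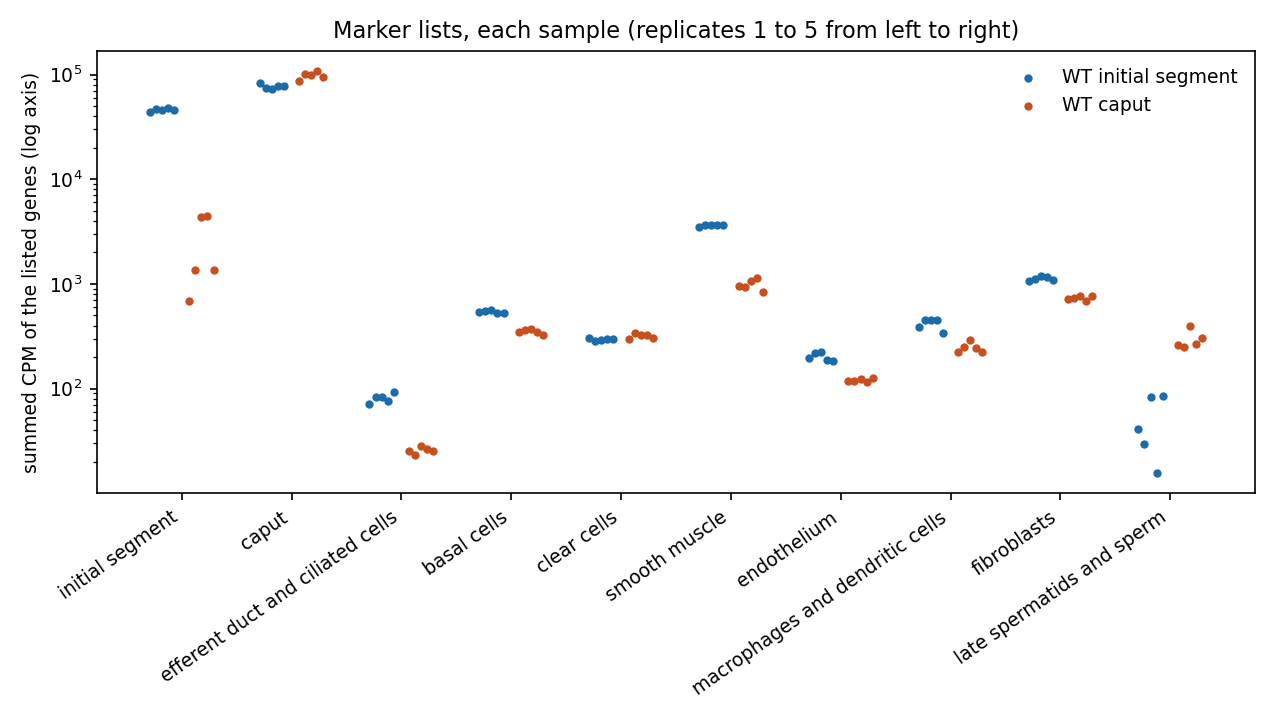
Summed level of 10 lists of cell type markers in each WT library, in CPM on a log axis, 1 point for each library. Initial segment markers fall from 43593 to 47724 CPM in the initial segments to 689 to 4420 CPM in the caputs, with caputs 3 and 4 highest, and sperm markers rise from 15.6 to 84.3 CPM to 251 to 392 CPM.

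Called genes were also read by their position. Each called gene was paired with the next called gene on its chromosome, passing over genes not called, and overlapping genes were kept. Among 418 such pairs at most 20000 bases apart, 321 (76.8%) had the same direction, against 50.2% for any 2 called genes. Up to 100000 bases it was 628 of 922 pairs (68.1%). Members of 1 of the families above formed 26 of the closer pairs, 22 of them in the same direction, and the exceptions included Lcn8 with Lcn5. Genes are not independent replicates and neighbouring genes can share reads, so these shares are a description.

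The same contrast in ArKI mice used 10 other samples. There, 1262 of 13718 tested genes (9.2%) were called higher in the initial segment and 1320 (9.62%) in the caput. Of the WT calls for the initial segment, 916 were also called in ArKI mice (68.4% of the WT calls and 72.6% of the ArKI calls), and 2 in the opposite direction. Of those for the caput, 1002 were shared (65.7% and 75.9%), and 7 were opposite. The shares of WT calls include genes not tested in ArKI mice, where 1288 of the 1339 and 1366 of the 1526 were tested. Of the tested ones, 1260 and 1334 had the same direction as in WT. The differences of Lcn8 were 4.72 ± 0.96 in WT and 6.15 ± 0.80 in ArKI, those of Lcn5 -7.52 ± 0.21 and -7.70 ± 0.26, those of Rnase9 -8.80 ± 0.22 and -8.40 ± 0.20, and those of Clu -4.75 ± 0.20 and -4.33 ± 0.30. These 4 genes had the same direction in both genotypes. Among the segment markers, Ces5a differed by -6.01 ± 0.53 in WT and -3.88 ± 0.37 in ArKI, and Crisp1 by 2.45 ± 0.82 and -1.44 ± 0.79, neither of which was called. Rhox5 had no count in any ArKI caput. Their interaction with genotype had edgeR adjusted p of 0.0219 for Ces5a, 0.0292 for Crisp1 and 0.0344 for Rhox5, all above 0.01. When the segment difference was tested for dependence on genotype, 1172 of 14329 genes (8.18%) had an edgeR adjusted p under 0.01, with 2 of the 51 genes named by rule or used as segment markers among them. These were Itm2b, with a difference of -1.08 ± 0.05 in WT and -0.69 ± 0.07 in ArKI (edgeR adjusted p of the interaction = 0.0012), and Glul, with -2.29 ± 0.07 and -1.88 ± 0.09 (edgeR adjusted p = 0.00886).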

How the data were processed

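RNA of whole initial segment and caput tissue was sequenced as single reads of 50 bases. The authors deposited whole-number read counts per gene. Per the labels, bcl2fastq 1.8.4 and Subread 1.5.1 were used on build mm10, and the paper names STAR as aligner and states that uniquely mapped reads were kept. The labels name an unstranded kit and the paper a stranded one, and whether counting used strand is not stated in the sources used here.

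The 10 WT epididymal libraries were fitted together with edgeR 4.0.16 (R 4.3.3). Low genes were left out by filterByExpr (minimum count 10, minimum total 15), scaled by TMM and tested by the robust quasi-likelihood test with Benjamini-Hochberg adjustment, at an adjusted p under 0.01 and a fold above 2. CPM used the library size of tested genes times the TMM factor. RPKM used GENCODE exon lengths, which 13629 of the 13787 tested genes had, and RefSeq gave positions for 13701. Ratios of low counts have exact 95% intervals, which cover counting error only. The ArKI libraries were fitted in the same way, and the interaction in a fit of all 4 groups. The test was checked on simulated data.

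Named genes were the 10 called genes of each direction with the largest difference (at least 10 CPM in the higher segment, no overlap of groups), the 10 with the highest mean CPM, and listed or family genes that were called, the most abundant or extreme. The members, lists and families were chosen with earlier results of these data known. The alternatives were other scalings, filters and thresholds, glmTreat, a replicate block, all 4 groups in 1 fit, DESeq2 1.42.0, limma-voom (limma 3.58.1) and leaving out each library. ROTS, used in the study, was not run. Python 3.11.15, scipy 1.17.1 and matplotlib 3.10.9 made the tables and figures. Some members of the gene lists are not reported here.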

Additional observations from a re-analysis of the deposited data

Results flagged for a closer look

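In 5 of 102 groups of 5 libraries examined, 1 library stood apart by its gap to the nearest of the others relative to the range of the group, and chance alone gives about 5.1. Ccdc153 was at 0.462 CPM in caput 5 and at 0.102 to 0.121 CPM in the other caputs. Gm14316 was at 0.206 CPM in initial segment 5 and had no reads in the other initial segments. The gene 5830403L16Rik was at 5500.2 CPM in initial segment 1 and at 5970 to 6115 CPM in the others. Crisp1 was at 1352 CPM in initial segment 5, against 2056 to 2327 CPM in the others. Cst11 was at 5725 CPM in initial segment 4, against 5340 to 5422 CPM in the others.

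Of the 51 genes named by rule or used as segment markers, the segment difference itself differed between genotypes for 2, by the test of the interaction in edgeR. For Itm2b the difference in WT minus that in ArKI was -0.39 on the log2 scale (edgeR adjusted p = 0.0012), and for Glul it was -0.41 (edgeR adjusted p = 0.00886). In both genotypes both genes were higher in the caput.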

How the results depend on the processing

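The fold limit and the filter moved the counts most. Against 1339 genes higher in the initial segment, glmTreat gave 872, a 4-fold limit 526, no fold limit 4322 and a filter of 10 counts in every sample 896. Against 1526 genes higher in the caput, glmTreat gave 986, a 4-fold limit 602, no fold limit 4253 and that filter 1003, which leaves out genes that are near 0 in 1 segment. The total of 2865 calls was 2867 to 2881 under other scalings, 1899 with that filter, 3569 with no filter, 3383 with DESeq2, 2875 with limma-voom, 3096 with all 4 groups in 1 fit and 2889 to 2998 with 1 library left out. Without caputs 3 and 4 it was 3089 and without caputs 2 and 4 it was 3058, choices made after seeing the data. Under upper-quartile factors the median of all genes was -0.04. Of the 51 genes named by rule or used as segment markers, none changed direction where it was tested, though only 32 of them passed the filter of 10 counts in every sample. The call was lost under glmTreat for Cst11, Gm14316, Itm2b and Lcn8, under a 4-fold limit for Ap1s2, Itm2b and Lcn2, and under limma-voom for Defb23, Gm14316, Pate2, Spint4 and Wfdc13. Crisp1 became called by DESeq2 and at an adjusted p under 0.05, and Ros1 with no fold limit. The cause was not tested.

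Initial segment and caput libraries share replicate numbers, and no source says that a number marks a mouse. The check on the data was mixed: the correlations of same-numbered deviations were -0.00820, 0.0324, 0.182, 0.115 and 0.175 for replicates 1 to 5, where replicates 3, 4 and 5 correlated best with their own number and replicates 1 and 2 did not. The numbers were therefore not used as pairs. With the replicate number as a block, 2881 genes were called, 2846 of them shared with the fit without it, and of the 51 genes only Defb48 lost its call (edgeR adjusted p = 0.01095), and in ArKI 1250 and 1308. Depth limited genes under about 0.4 CPM, where a library holds a few counts.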

Other observations

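Some listed genes had too few reads for the test across genes and were compared alone, by a two-sided exact permutation test whose smallest p with 5 against 5 libraries is 0.0079. The beta-defensin Defb26 had 51 counts in the caputs and none in the initial segments, and Ltf, which encodes lactoferrin, had 58 against 1. The potassium channel subunit Kcnmb2 had 64 counts in the initial segments and none in the caputs, and the cystatins Cst13 and Cst9 had 66 against 17 and 30 against 3. Each reached the smallest p in the exact test, with a Benjamini-Hochberg adjusted value of 0.0447 over the genes compared in this way. That value is above the limit of 0.01 used for calls. Other genes compared in this way, Adamts20 and Cldn16 among them, shared the smallest p.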
